A study of Mus musculus with 23 samples.

Results

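Expression of 10 genes of the p53 pathway was followed across normal thymus and 2 kinds of T-cell acute lymphoblastic leukemia (T-ALL) in the mouse. The genes were taken by name from a deposited table of 24475 genes: Trp53 and Cdkn2a, the p53 inhibitors Mdm2 and Mdm4, and the p53 target genes Cdkn1a, Ccng1, Trp53inp1, Sesn2, Phlda3 and Eda2r. All 10 were found, each in 1 row. RNA sequencing covered 6 normal thymus samples of C57BL/6 mice, 14 tumors that grew from Wild type donor thymus (WT T-ALL) and 3 that grew from Notch3 knockout donor thymus (Notch3 KO T-ALL). Both kinds of tumor were sampled as spleen of BALB/c Rag2-/-Il2rg-/- hosts, which lack T, B and natural killer cells and keep their own erythroid and myeloid cells, after newborn thymus had been implanted under the kidney capsule. The knockout allele carries a β-galactosidase gene in the first coding exon of Notch3. Wild type donors were the congenic strain B6.Ly5.1, close to C57BL/6, and the strain of the Notch3 knockout donors is not given in the sources used here, so the BALB/c label is that of the host. Tissue, host cells and disease therefore differ together between tumor and thymus, and their parts in any such difference cannot be told apart. Each tumor came from its own host. In these bulk samples fewer cells of a type and less RNA per cell cannot be told apart.

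The p53 protein is a transcription factor that is held at a low level in unstressed cells by Mdm2, a ubiquitin ligase that marks it for destruction, and by Mdm4, a related protein that covers its activation domain. DNA damage and oncogene activity free p53 from both, and p53 then switches on genes for cell cycle arrest, repair, metabolic restraint and cell death, Mdm2 itself among them. Oncogene activity acts through Arf, a product of Cdkn2a that binds Mdm2. In human T-ALL the CDKN2A locus is a frequent site of deletion, and loss of p53 function is a known route to thymic lymphoma in mice.

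Levels below are given as deposited, as log2 of the reads per kilobase of gene scaled by library size (RPKM) plus 1. In every library the 75th percentile stood at a scaled RPKM of 10, which is how the scaling was read from the values. A difference is between group means on that scale, which understates the change of weakly expressed genes. Between 10154 and 11011 genes per library reached a scaled RPKM of 1. The level of Notch3 lay between 2.62 and 4.29 in thymus, between 3.17 and 5.78 in WT T-ALL and, in the knockout tumors, between 2.59 and 3.74, and which part of the gene gave these values was not tested. T lineage genes were abundant in all groups, with 8 markers summing to a scaled RPKM of at least 2943 in thymus, 1545 in WT T-ALL and 2078 in the knockout tumors, and 4 of the 8 were lower than in thymus in WT T-ALL and 2 of the 8 in Notch3 KO T-ALL (limma). Erythroid markers moved with the groups: 8 of 8 were higher in either kind of tumor than in thymus (limma), and their sum lay between 1.57 and 66.6 in thymus, between 312 and 24570 in WT T-ALL and, in the knockout tumors, between 10010 and 34240. Of 8 neutrophil markers 8 were higher in WT T-ALL and 3 in the knockout tumors, with sums between 57.1 and 531 in thymus, between 637 and 84650 in WT T-ALL and, in the knockout tumors, between 202 and 7584. Macrophage markers were higher for 6 of 7 tested in WT T-ALL and 7 of 7 in Notch3 KO T-ALL, megakaryocyte markers for 6 of 6 in both, and stroma markers for 2 of 2 tested in both, whereas B cell markers were lower for 4 of 5 in both and thymic epithelium markers for 2 of 2 tested in WT T-ALL and 1 of 2 in Notch3 KO T-ALL (limma), and the part of these cells in the results was not tested. The libraries also fell into 2 sets that the labels do not name. Nr2c2ap lay at 3.48 to 4.63 in 9 libraries, called set A here (thymus 5 and 6, WT T-ALL 3, 4, 5 and 7, and all 3 Notch3 KO T-ALL), and at 2.11 to 2.87 in the other 14, called set B, with 1110002L01Rik and Srsf4 parting the same libraries. All Notch3 KO T-ALL libraries lay in set A.

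Against thymus, Trp53 and Cdkn2a were higher and Mdm2, Mdm4 and Trp53inp1 were lower in both kinds of tumor. Of the 10 members, 9 passed the filter on low values and Eda2r did not. In WT T-ALL 2 of 9 were higher and 3 of 9 lower, where 51.6% of 11919 genes tested were called in either direction, 29.3% higher and 22.3% lower (limma, Benjamini-Hochberg adjusted p under 0.05 over all genes tested). In Notch3 KO T-ALL the same 5 members were called in the same directions, where 37.5% of all genes were called, 21.2% higher and 16.3% lower. Both comparisons share the thymus samples. The 55.6% of tested members called lies close to the background in WT T-ALL, so the count is no result about the pathway. The median member difference was 0.24 in WT T-ALL and -0.00 in Notch3 KO T-ALL, beside 0.08 for all genes in both. With the mean of the erythroid markers as a covariate, 0 of 9 members were called in either comparison and the calls over all genes dropped to 859 and 153. The part of erythroid cells in these differences was not tested, and the marker mean, on the log2 scale, did not overlap between thymus, at 0.19 to 1.52, and tumors, at 3.41 to 8.69. Within set A, with 2 thymus samples, 2 members, Trp53 and Mdm4, were called for WT T-ALL, and Cdkn2a, Mdm2 and Trp53inp1 were not (limma adjusted p = 0.0946, 0.0715 and 0.0973), at differences of 3.43, -0.60 and -1.46 beside 3.07, -0.71 and -1.25 with all samples. In Notch3 KO T-ALL Trp53inp1 lost its call there at -1.53 beside -1.61 (limma adjusted p = 0.0756).

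**Figure D1:**
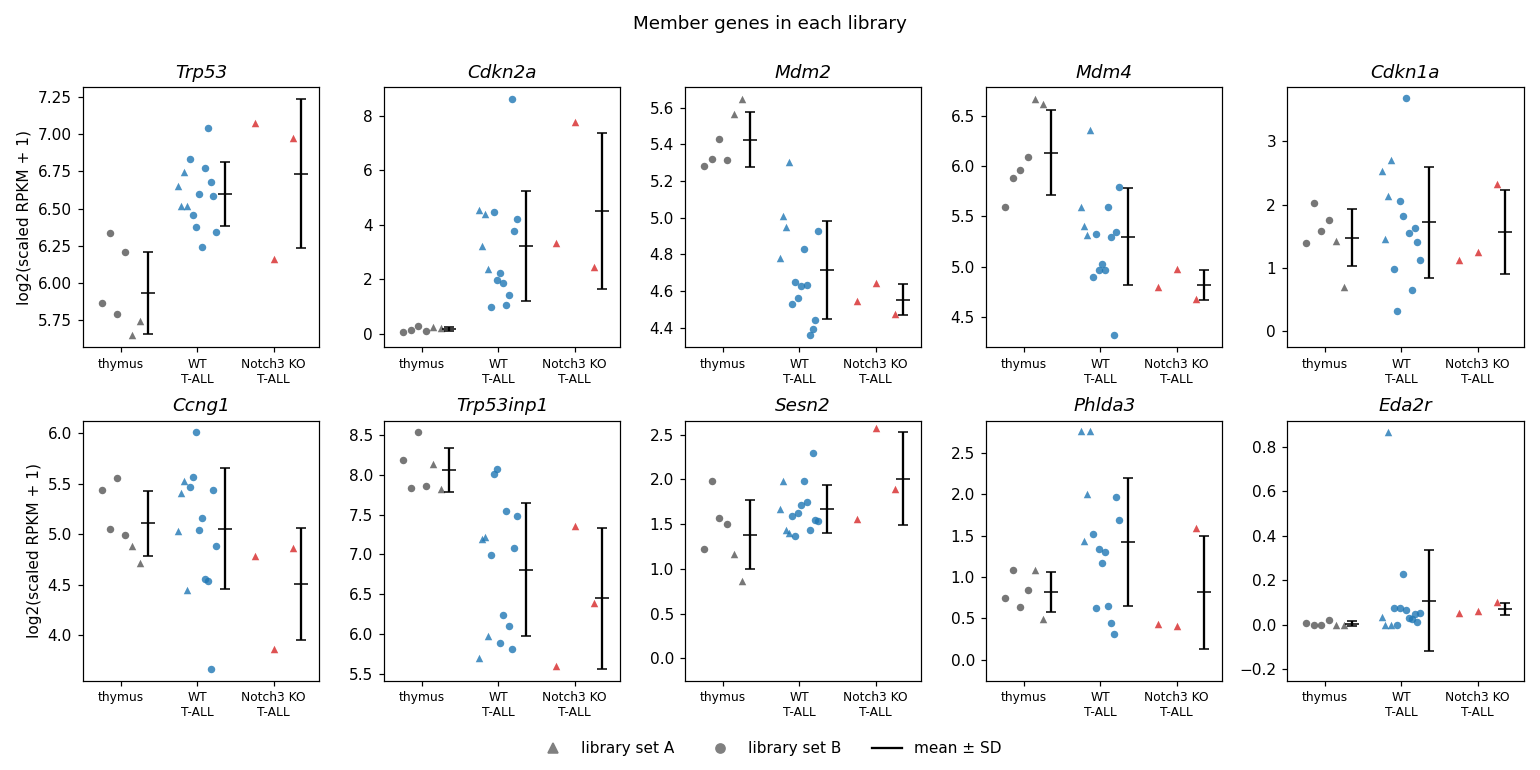
Level of each of the 10 members, as log2(scaled RPKM + 1), in 6 thymus, 14 WT T-ALL and 3 Notch3 KO T-ALL libraries. Each point is 1 library, triangles are set A and circles set B, and the bar beside each group is the mean ± SD. Cdkn2a is at 0.05 to 0.26 in thymus and at 0.97 or more in every tumor, with 2 tumors at 7.79 and 8.62.

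Trp53 itself (gene 22059, chr11:69580348-69591873, GRCm38.p6), which encodes p53, was expressed in every library. In thymus its level ran from 5.65 through a median of 5.83 to 6.34, in WT T-ALL from 6.24 through 6.59 to 7.04, and in Notch3 KO T-ALL it was 7.07, 6.16 and 6.97 in tumors 1, 2 and 3. Of the 14 WT T-ALL, 13 lay above every thymus sample, and of the 3 Notch3 KO T-ALL, tumors 1 and 3 did. The difference from thymus was 0.66 ± 0.14 (SE, n = 14 and 6) in WT T-ALL, with a limma adjusted p of 0.0004 and an exact permutation p of 5.16e-05. It was 0.80 ± 0.20 (SE, n = 3 and 6) in Notch3 KO T-ALL, with a limma adjusted p of 0.00331 and an exact permutation p of 0.0357. Within set A the difference in WT T-ALL was 0.91 and within set B 0.54. Trp53 was among the steadier genes of the WT T-ALL, since 95.9% of all genes had an SD as large as its 0.21. The lowest tumors were Notch3 KO T-ALL 2 at 6.16 and WT T-ALL 110 at 6.24.

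Cdkn2a (gene 12578, chr4:89274473-89294619, minus strand) gave the largest difference of the members. The locus encodes 2 unrelated proteins from 2 starts, 12427 bases apart: Arf, which binds Mdm2 and frees p53, from the upstream start, and Ink4a, an inhibitor of the cyclin D-dependent kinases, from the downstream start. The deposited table has 1 value for the gene, so the share of each product is not analysed here. The 250 bases before each start (RefSeq, GRCm38.p6) are shown because reads of either product enter the same Cdkn2a value. Capitals mark TTTCCCGC, letters that E2F factors are known to bind, searched on both strands and chosen after the windows had been read.
Cdkn2a upstream start, chr4:89294620-89294869, minus strand: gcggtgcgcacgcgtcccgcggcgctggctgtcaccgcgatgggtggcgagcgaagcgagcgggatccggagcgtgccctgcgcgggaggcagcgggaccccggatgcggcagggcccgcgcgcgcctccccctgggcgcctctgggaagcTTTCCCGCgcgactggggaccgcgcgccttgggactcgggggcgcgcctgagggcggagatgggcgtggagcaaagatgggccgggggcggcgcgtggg
Cdkn2a downstream start, chr4:89282193-89282442, minus strand: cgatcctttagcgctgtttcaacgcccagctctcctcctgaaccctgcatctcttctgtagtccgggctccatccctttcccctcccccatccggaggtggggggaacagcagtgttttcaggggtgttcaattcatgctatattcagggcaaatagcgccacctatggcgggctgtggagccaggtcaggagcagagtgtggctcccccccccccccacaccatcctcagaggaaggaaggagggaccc
The letters stood 1 time in the upstream window, 99 bases before the start, and 0 times in the downstream window. They occurred in 0.895% of 32851 mouse promoter windows of this length.

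In thymus Cdkn2a was close to 0, at 0.05 to 0.26 with a median of 0.16, which is a scaled RPKM of 0.0358 to 0.202. In WT T-ALL it ran from 0.97 through a median of 2.80 to 8.62, a scaled RPKM of 0.959 to 393.7. In Notch3 KO T-ALL it was 3.32 in tumor 1, 7.79 in tumor 2 and 2.45 in tumor 3. Every one of the 17 tumors lay above every thymus sample. For WT T-ALL 15.1% of all genes had groups without overlap, 8.42% with the tumors higher and 6.64% with the tumors lower, and for Notch3 KO T-ALL the shares were 42.3%, 23.9% and 18.4%. The difference was 3.07 ± 0.85 (SE, n = 14 and 6) in WT T-ALL, with a limma adjusted p of 0.00452 and an exact permutation p of 0.00152. In Notch3 KO T-ALL it was 4.36 ± 1.23 (SE, n = 3 and 6), with a limma adjusted p of 0.00772 and an exact permutation p of 0.0119, the smallest that 3 tumors against 6 thymus samples can give. Every thymus value lay below the filter, so Cdkn2a entered the fit through the tumors, where it is high. Without a filter the limma adjusted p was 0.0085 and 0.013. The difference was 3.43 within set A and 2.93 within set B for WT T-ALL. Without Notch3 KO T-ALL 2 the difference of that group was 2.72 and lost its call (limma adjusted p = 0.0973), and without WT T-ALL 126 that of WT T-ALL was 2.65 and kept it.

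The spread of Cdkn2a among WT T-ALL was wide. Its SD of 2.03 was reached by 0.268% of all genes tested. The gap between WT T-ALL 126 at 8.62 and the next tumor, WT T-ALL 3 at 4.56, was 4.06, and 0.0587% of genes had a gap as large. The other 13 WT T-ALL filled the range below without a like step: tumors 36, 5 and 202 lay at 4.47, 4.41 and 4.21, and tumors 111 and 14 at 1.05 and 0.97. None fell to the thymus range.

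The neighbouring genes on chromosome 4 are Mtap (chr4:89137370-89181090), an enzyme of methionine salvage, and Cdkn2b (chr4:89306289-89311032), a second kinase inhibitor gene. By genome coordinate, 93382 bases separate Mtap from Cdkn2a and 11669 separate Cdkn2a from Cdkn2b. Mtap was higher in both kinds of tumor, at 3.57 to 4.38 in thymus, and without overlap at 4.45 to 6.56 in WT T-ALL and at 5.08 to 6.07 in the knockout tumors. Its difference was 1.48 ± 0.23 (SE, n = 14 and 6; limma adjusted p = 1.87e-05) in WT T-ALL and 1.53 ± 0.34 (SE, n = 3 and 6; limma adjusted p = 0.00123) in Notch3 KO T-ALL. Cdkn2b did not pass the filter: it reached 0.18 in thymus and 2.49 in WT T-ALL, from a lowest value of 0.05 there, and lay at 0.67 to 1.19 in the knockout tumors. Its exact permutation p against thymus was 0.103 for WT T-ALL and 0.0119 for Notch3 KO T-ALL. WT T-ALL 126 was the highest of the 14 WT T-ALL in all 3 genes, with Cdkn2b at 2.49 beside 0.81 in the next tumor and Mtap at 6.56 beside 6.44. Notch3 KO T-ALL 2 was the highest of its group in Cdkn2a and in Cdkn2b, at 1.19, and the lowest in Mtap, at 5.08. Neither Cdkn2a nor Mtap was listed at 0 in any tumor. These bulk samples also hold host cells, so the values cannot show whether the locus is deleted in leukemic cells, which was not tested.

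The 2 genes that hold p53 in check were both lower in the tumors. Mdm2 (gene 17246, chr10:117688875-117710758) lay at 5.28 to 5.65 in thymus, with a median of 5.37, and at 4.36 to 5.30 in WT T-ALL, with a median of 4.64. It was 4.55, 4.64 and 4.48 in Notch3 KO T-ALL 1, 2 and 3. All tumors but WT T-ALL 7, at 5.30, lay below every thymus sample. Mdm2 fell by 0.71 on the log2 scale, with an SE of 0.12, in WT T-ALL (limma adjusted p = 4.675e-05, exact permutation p = 5.16e-05), and the value in Notch3 KO T-ALL was -0.87 ± 0.18 (limma adjusted p = 0.00053, exact permutation p = 0.0119). Within the sets the WT T-ALL difference was -0.60 in A and -0.74 in B.

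Mdm4 (gene 17248, chr1:132986105-133030587) lay at 5.59 to 6.67 in thymus, with a median of 6.03, and at 4.31 to 6.36 in WT T-ALL, with a median of 5.32. In Notch3 KO T-ALL 1, 2 and 3 it was 4.80, 4.98 and 4.67, below every thymus sample. The difference was -0.84 ± 0.21 (SE, n = 14 and 6; limma adjusted p = 0.00189) in WT T-ALL, where 12 of 14 tumors lay below all thymus samples, and -1.32 ± 0.30 (SE, n = 3 and 6; limma adjusted p = 0.00152) in Notch3 KO T-ALL. The 2 thymus samples of set A were the highest of all libraries, at 6.67 and 6.61, and the WT T-ALL difference was -0.97 within set A and -0.73 within set B. With the erythroid markers as a covariate it turned to 0.18 and 0.15 in the 2 comparisons and was not called.

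The 6 target genes did not move together. Trp53inp1 (gene 60599, chr4:11156441-11174379), a stress protein that p53 induces and that in turn supports p53 activity, was the most abundant of them, and the only target called. It lay at 7.83 to 8.53 in thymus, at 5.71 to 8.07 in WT T-ALL, with a median of 7.04, and at 5.60, 7.36 and 6.39 in Notch3 KO T-ALL 1, 2 and 3. Of the 14 WT T-ALL, 12 lay below every thymus sample, and tumors 48 and 36, at 8.07 and 8.01, did not. The difference was -1.25 ± 0.34 (SE, n = 14 and 6; limma adjusted p = 0.00372) in WT T-ALL and -1.61 ± 0.49 (SE, n = 3 and 6; limma adjusted p = 0.0124) in Notch3 KO T-ALL. With T lineage markers as a covariate these were -0.79 and -1.06 and lost their calls (limma adjusted p = 0.121 and 0.149), and the Notch3 KO T-ALL call was also lost without tumor 1 (limma adjusted p = 0.11).

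Cdkn1a (gene 12575, chr17:29090979-29100722), the kinase inhibitor through which p53 arrests the cell cycle, is shown with the 250 bases before the upstream of its 2 annotated starts (RefSeq, GRCm38.p6), because the window holds a p53 full site. Capitals mark it.
Cdkn1a upstream start, chr17:29090729-29090978, plus strand: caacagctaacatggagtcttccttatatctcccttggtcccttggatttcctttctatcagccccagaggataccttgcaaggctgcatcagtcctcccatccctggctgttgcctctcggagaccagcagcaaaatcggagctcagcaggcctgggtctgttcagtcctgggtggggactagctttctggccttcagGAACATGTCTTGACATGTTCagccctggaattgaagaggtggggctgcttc
A p53 full site was searched as 2 adjoining half-sites of 10 letters, with the 4 core letters of each matched in full and at most 1 mismatch elsewhere, and the pattern reads alike on both strands. It stood 51 bases before this start and in 0.0457% of the 32851 windows. It was in no other of the 12 windows found for 9 of the members, a count that covers these 250 bases alone. Trp53inp1 had no window.

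Cdkn1a was weakly expressed in every group. Its level was 0.70 to 2.02 in thymus, with a median of 1.51, and 0.33 to 3.68 in WT T-ALL, with a median of 1.59. It was 1.12, 1.25 and 2.33 in Notch3 KO T-ALL 1, 2 and 3. The groups overlapped, and the differences from thymus were 0.24 ± 0.35 (SE, n = 14 and 6; limma adjusted p = 0.585) and 0.09 ± 0.51 (SE, n = 3 and 6; limma adjusted p = 0.909). The library sets disagreed on the first: it was 1.14 within set A and -0.16 within set B.

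Ccng1 (gene 12450, chr11:40748552-40755309), an atypical cyclin and a classical p53 target, lay at 4.72 to 5.56 in thymus, at 3.67 to 6.01 in WT T-ALL and at 4.78, 3.87 and 4.86 in Notch3 KO T-ALL 1, 2 and 3. Group medians were 5.03 in thymus and 5.10 in WT T-ALL. The differences were -0.05 ± 0.25 (SE, n = 14 and 6; limma adjusted p = 0.868) and -0.60 ± 0.36 (SE, n = 3 and 6; limma adjusted p = 0.192). Without Notch3 KO T-ALL 2 the latter was -0.28. The 2 libraries of lowest Ccng1, WT T-ALL 126 and Notch3 KO T-ALL 2, were those of highest Cdkn2a.

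Sesn2 (gene 230784, chr4:132492804-132510456) encodes a sestrin, a stress protein that restrains the growth kinase mTOR. It lay at 0.86 to 1.98 in thymus, at 1.37 to 2.30 in WT T-ALL and at 1.56, 2.57 and 1.89 in Notch3 KO T-ALL 1, 2 and 3. Its differences were 0.28 ± 0.17 (SE, n = 14 and 6; limma adjusted p = 0.173) and 0.63 ± 0.25 (SE, n = 3 and 6; limma adjusted p = 0.0524). The latter passed the threshold with library set as a term (0.77, limma adjusted p = 0.0254), with limma without trend and robust fitting (adjusted p = 0.0418) and when any 1 of thymus 2, WT T-ALL 110, WT T-ALL 126 or Notch3 KO T-ALL 1 was left out. It was 0.34 without Notch3 KO T-ALL 2 (limma adjusted p = 0.333) and -0.24 with the erythroid markers as a covariate.

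Phlda3 (gene 27280, chr1:135766085-135769134) encodes a small lipid-binding protein that restrains Akt. It lay at 0.50 to 1.09 in thymus, with a median of 0.80, and at 0.32 to 2.76 in WT T-ALL, with a median of 1.39. In Notch3 KO T-ALL 1, 2 and 3 it was 0.43, 0.41 and 1.60. Of the 14 WT T-ALL, 10 lay above every thymus sample and 2 below, and the difference was 0.61 ± 0.31 (SE, n = 14 and 6; limma adjusted p = 0.103). It was 1.45 within set A and 0.27 within set B. In Notch3 KO T-ALL the difference was -0.00 ± 0.45 (SE, n = 3 and 6; limma adjusted p = 0.996). With the erythroid markers as a covariate it turned positive, to the value given in the closing section, and was not called.

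Eda2r (gene 245527, chrX:97333837-97377234), a death-receptor family member and p53 target, was nearly silent. It was 0.00 to 0.02 in thymus and 0.05, 0.06 and 0.10 in Notch3 KO T-ALL 1, 2 and 3. In WT T-ALL it ran from 0.00 through a median of 0.04 to 0.87, the last in tumor 5, with tumor 108 next at 0.23. The exact permutation p was 0.3 for WT T-ALL and 0.0119 for Notch3 KO T-ALL, the latter over values below a scaled RPKM of 0.1.

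**Figure D2:**
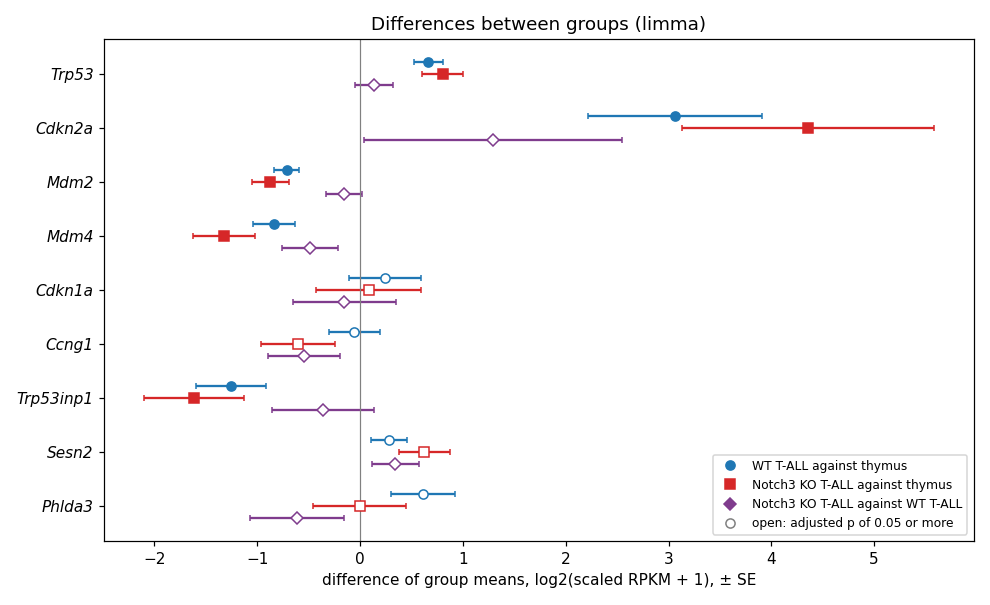
Difference of group means on the log2(scaled RPKM + 1) scale, ± SE, for the 9 members that passed the filter, in the 3 comparisons (blue, WT T-ALL against thymus; red, Notch3 KO T-ALL against thymus; purple, Notch3 KO T-ALL against WT T-ALL). Filled points have a limma adjusted p under 0.05: Trp53 and Cdkn2a to the right of 0, Mdm2, Mdm4 and Trp53inp1 to the left, in both comparisons with thymus, and none of the purple points.

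Between the 2 kinds of tumor, which asks whether a donor thymus without Notch3 gives leukemia with another p53 pathway state, 0 of 9 members were called by limma, where 0.617% of 11677 genes were called, 0.591% higher and 0.0257% lower in Notch3 KO T-ALL. Without adjustment 0 of 9 had a limma p under 0.05, and 0 of 10 had an exact permutation p under 0.05. The lowest were Mdm4 by limma, at -0.48 ± 0.27 (SE, n = 3 and 14; unadjusted limma p = 0.0933, adjusted p = 0.725), and Sesn2 by the exact permutation test, at 0.34 ± 0.23 (SE, n = 3 and 14; exact permutation p = 0.0794). The differences of the others ran from -0.61 for Phlda3 to 1.29 ± 1.26 (SE) for Cdkn2a. Without Notch3 KO T-ALL 2 the Cdkn2a difference was -0.34. Within set A, which holds 4 of the WT T-ALL, Phlda3 differed by -1.43, Mdm4 by -0.85, Cdkn1a by -0.64 and Mdm2 by -0.46, beside -0.61, -0.48, -0.15 and -0.16 with all tumors. Trp53inp1 differed there by -0.07 beside -0.36, and 0 members were called (limma). A p above the threshold does not show that the 2 kinds of tumor are alike. Over all genes 994 had an unadjusted limma p under 0.05 and 72 were called.

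A wider list of 42 p53 target genes, members left out, was split in the same way. Of its 35 genes tested, 12 were higher and 9 lower in WT T-ALL and 10 higher and 7 lower in Notch3 KO T-ALL (limma), which is 60.0% and 48.6% beside 51.6% and 37.5% of all genes. Their median difference was -0.04 and 0.06, beside 0.08 for all genes in both. With the erythroid marker mean as a covariate, fewer of these genes were called in WT T-ALL and none in Notch3 KO T-ALL. The death receptor gene Fas fell furthest. It lay at 5.42 to 6.17 in thymus, at 1.46 to 4.17 in WT T-ALL and, in the knockout tumors, at 1.59 to 3.91, a difference of -3.05 ± 0.35 (SE, n = 14 and 6; limma adjusted p = 2.868e-07) and -2.88 ± 0.50 (SE, n = 3 and 6; limma adjusted p = 0.000134). Btg2, an antiproliferative gene, fell by 1.77 and 1.33 on the log2 scale, its level in thymus being 7.49 to 7.90. Tnfrsf18, a T-cell costimulatory receptor gene, fell by 1.47 and 1.73, and the second sestrin gene Sesn1 fell by 1.01 in WT T-ALL. The mean of Sesn1 was 4.46 in Notch3 KO T-ALL, near the 4.45 of WT T-ALL, beside 5.46 in thymus. Bbc3, which encodes the death protein Puma, fell by 0.96 and 1.27.

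The target genes that were higher included some with other known roles in dividing cells. Gtse1 and Psrc1, which act on the mitotic spindle and microtubules, differed by 1.11 and 1.31 in WT T-ALL (limma adjusted p = 0.000696 and 0.0389), and in Notch3 KO T-ALL Gtse1 differed by 1.34 and was called whereas Psrc1, at 1.14, was not (limma adjusted p = 0.242). Zfp365, a genome stability gene, was higher by 1.61 in WT T-ALL and by 1.33 in Notch3 KO T-ALL, and it passed the filter only through the tumors, since thymus values, at a scaled RPKM of 0.806 to 1.11, met it in too few samples. The noncoding gene Pvt1, the neighbour of Myc, was higher by 1.43 and 1.35, at 0.38 to 0.57 in thymus and 0.96 to 2.85 in WT T-ALL. It too passed the filter only through the tumors, since every thymus value lay below it. Pmm1, an enzyme of mannose metabolism, was higher by 1.29 and 1.37 with no overlap between the groups. Abhd4, a lipid hydrolase gene, was higher by 1.20 and 1.52. Proliferation markers moved with these: 8 of 8 were higher in WT T-ALL and 7 of 8 in Notch3 KO T-ALL. Their summed scaled RPKM was 419 to 691 in thymus and 723 to 1261 in WT T-ALL, and their part in the list's changes was not tested. The authors report large copy number lesions in some T-ALL cases, and the part of gene copy number in the list's changes was not tested either. Gadd45a, a DNA damage response gene, was the only gene of the list called between the 2 kinds of tumor: it was 4.10 to 5.13 in Notch3 KO T-ALL and 2.58 to 4.23 in WT T-ALL, a difference of 1.37 ± 0.30 (SE, n = 3 and 14; limma adjusted p = 0.0373). The ranges overlapped, and the call was lost in 10 of 17 fits that left out 1 library.

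**Figure D3:**
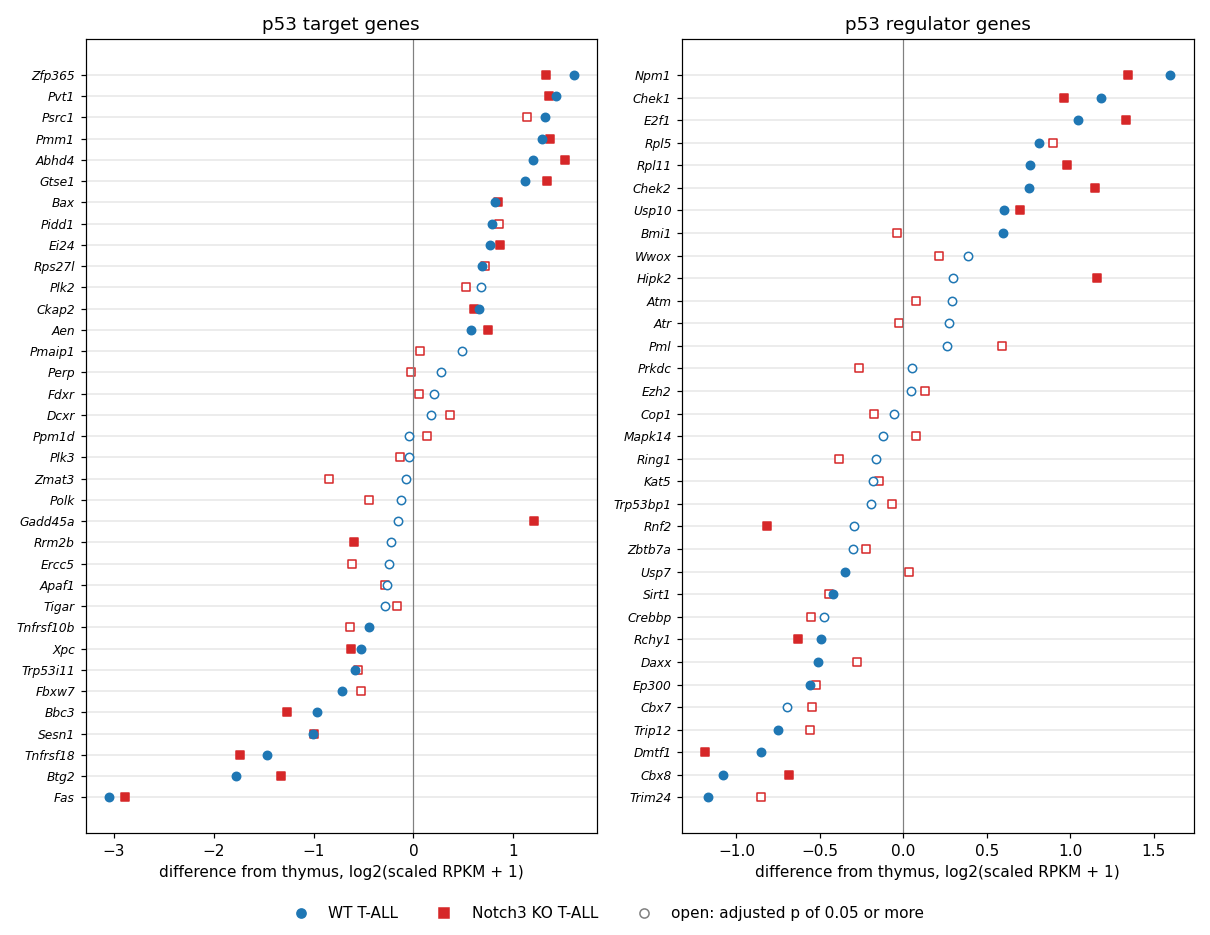
Difference from thymus, on the log2(scaled RPKM + 1) scale, of the 35 p53 target genes (left) and 33 p53 regulator genes (right) that passed the filter, ordered by the WT T-ALL value; blue circles are WT T-ALL, red squares Notch3 KO T-ALL, and open symbols have a limma adjusted p of 0.05 or more. Fas is the farthest point, at -3.05 and -2.88, and both lists spread to both sides of 0.

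Genes that act on p53 from above were listed as 36 regulators, of which 33 were tested. In WT T-ALL 8 were higher and 9 lower, and in Notch3 KO T-ALL 7 were higher and 4 lower (limma), which is 51.5% and 33.3%, close to the background. Npm1, a nucleolar protein that binds Arf, was higher by 1.60 ± 0.23 (SE, n = 14 and 6) and 1.35 ± 0.34 (SE, n = 3 and 6), at 9.01 to 9.67 in thymus and 10.11 to 12.06 in WT T-ALL. E2f1, a cell cycle transcription factor, was higher by 1.05 ± 0.19 (SE, n = 14 and 6) in WT T-ALL and by 1.34 ± 0.28 (SE, n = 3 and 6) in Notch3 KO T-ALL (limma adjusted p of 9.6e-05 and 0.000673), beside 8 of 8 and 7 of 8 proliferation markers. The checkpoint kinase genes Chek1 and Chek2 were higher by 1.18 and 0.75 in WT T-ALL and by 0.96 and 1.15 in Notch3 KO T-ALL. Rpl5, a ribosomal protein that binds Mdm2, was higher by 0.81 in WT T-ALL, and its 0.90 in Notch3 KO T-ALL was not called (limma adjusted p = 0.0501). Hipk2, a kinase that activates p53, was higher by 1.16 in Notch3 KO T-ALL, and its 0.30 in WT T-ALL was not called (limma adjusted p = 0.388). Its difference between the 2 kinds of tumor, 0.86, was not called (limma adjusted p = 0.542).

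Among the regulators that were lower, Dmtf1, an activator of the Arf promoter, fell by 0.86 and 1.19 in the 2 kinds of tumor. The Polycomb genes Cbx8, a repressor of the Cdkn2a locus, and Rnf2 fell by 0.69 and 0.81 in Notch3 KO T-ALL. In WT T-ALL Cbx8 fell by 1.08 with no overlap, and Rnf2, at -0.30, was not called (limma adjusted p = 0.144). Of the other Polycomb genes of the list, named after their values were seen, Bmi1 was higher by 0.60 in WT T-ALL (limma adjusted p = 0.031) and, at -0.04, not called in Notch3 KO T-ALL, and Ezh2, Ring1 and Cbx7 were called in neither. The ubiquitin ligase genes Trim24, Trip12 and Rchy1 were also among them. Trim24 and Trip12 fell by 1.17 and 0.75 in WT T-ALL, and their values of -0.85 and -0.56 in Notch3 KO T-ALL were not called (limma adjusted p = 0.0508 and 0.116). Rchy1 fell by 0.63 in Notch3 KO T-ALL and by 0.49 in WT T-ALL.

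Single tumors stood apart in several members, and the values that follow are descriptions of tumors picked for those values, with no test. WT T-ALL 126, the tumor of highest Cdkn2a, was the lowest of the 17 tumors in Ccng1 at 3.67, Mdm4 at 4.31 and Phlda3 at 0.32. Its gap to the next WT T-ALL was 0.78 in Ccng1 (matched by 2.83% of genes), 0.58 in Mdm4 (6.44%) and 0.13 in Phlda3 (52.3%). Its Trp53 stood at 6.68 and its Cdkn1a at 1.62, near the group medians of 6.59 and 1.59. Among the 35 wider targets it was the lowest tumor in 5, or 14.3%, where it was the lowest in 11.5% of all genes. These 5, named after their values were seen, were Bbc3 at 1.18, Ckap2 at 4.06, Fbxw7 at 2.85, the repair polymerase gene Polk at 1.67 and Rrm2b at 1.91. It was the highest in 2, Ei24 at 5.58 and Trp53i11 at 6.52, and second highest in the member Sesn2 at 2.30. The share of lowest targets lies close to that of all genes. Beside this, its stroma and thymic epithelium marker sums of 192.4 and 14.9 were the highest and its proliferation sum of 723 was the lowest of the 17 tumors, and their part in these values was not tested.

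Notch3 KO T-ALL 2, with Cdkn2a at 7.79, was the lowest tumor in Trp53 at 6.16 and the highest in Sesn2 at 2.57. Its Ccng1 at 3.87 and Phlda3 at 0.41 were second lowest of the 17 tumors after WT T-ALL 126. It was the lowest tumor in 5 of the 35 wider targets, or 14.3% beside 9.3% of all genes: Aen at 3.60, the death effector gene Bax at 5.55, Ercc5 at 2.33, Fdxr at 2.61 and Zmat3 at 0.35, named after their values were seen. It was the highest in Btg2 at 6.89 and Sesn1 at 5.17. Its erythroid marker sum of 34240 was the highest and its neutrophil sum of 202 the lowest of the 17 tumors. The share of these cells in its values was not tested.

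**Figure D4:**
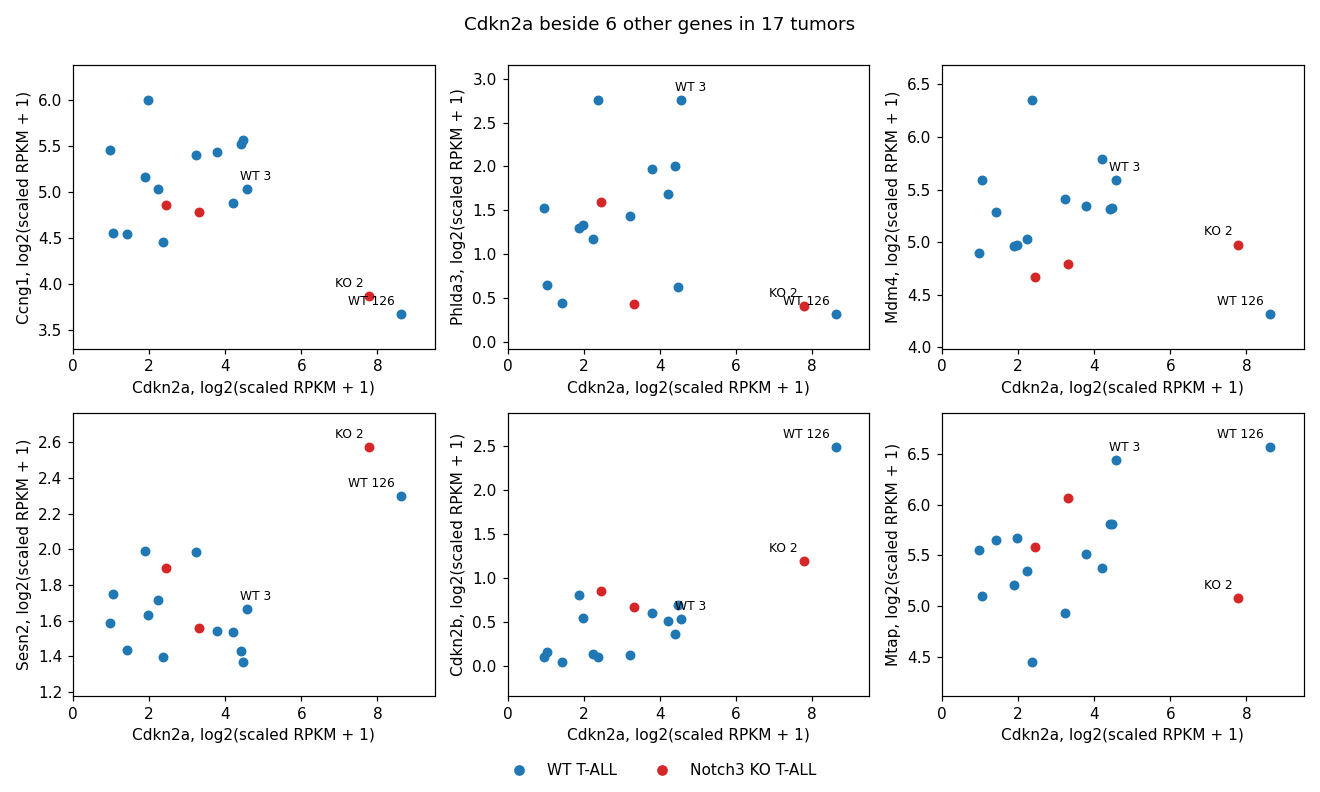
Level of Cdkn2a (horizontal) against Ccng1, Phlda3, Mdm4, Sesn2, Cdkn2b and Mtap (vertical), both as log2(scaled RPKM + 1), in 14 WT T-ALL (blue) and 3 Notch3 KO T-ALL (red). Each point is 1 tumor; WT T-ALL 126 and Notch3 KO T-ALL 2 lie at the right, lowest in Ccng1 at 3.67 and 3.87 and highest in Sesn2 at 2.30 and 2.57.

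The p53 targets had extremes in other tumors. Cdkn1a was highest in WT T-ALL 110 at 3.68, with WT T-ALL 7 next at 2.71, a gap that 6.41% of genes matched. WT T-ALL 110 also had the highest neutrophil marker sum, 84650, and the lowest T lineage sum, 1545, of the 17 tumors, and the part of neutrophils in its Cdkn1a level was not tested. WT T-ALL 7 was the highest tumor in Mdm2 at 5.30 and Mdm4 at 6.36, and with WT T-ALL 3 it shared the highest Phlda3, 2.76. It was also the highest in Fdxr, a mitochondrial reductase gene and p53 target, at 4.64 beside 3.49 in the next WT T-ALL, tumor 4. The wider targets stood a median of 0.25 above the tumor median in WT T-ALL 3 and 0.23 above it in WT T-ALL 7, where all genes stood at 0.03 and 0.00. Both are libraries of set A, and WT T-ALL 7 had the lowest erythroid marker sum of the 17 tumors, 312. The part of the set and of erythroid cells in these values was not tested.

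The wider targets stood lowest by the same measure in WT T-ALL 120 and 110, at -0.15 and -0.14, followed by WT T-ALL 36 at -0.12, where all genes stood at -0.02, -0.12 and 0.00. WT T-ALL 36 had the lowest Cdkn1a of all 17 tumors at 0.33 and the lowest Sesn2 at 1.37, and it was among the lowest 3 tumors in 13 of the 35 wider targets, or 37.1%, beside 20.2% of all genes. Its Trp53inp1, by contrast, was second highest among the tumors at 8.01, and its Cdkn2a was 4.47. Its macrophage, megakaryocyte and thymic epithelium marker sums, 15.99, 4.20 and 0.560, were the lowest of the 17 tumors, and their part in these values was not tested.

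Across the 14 WT T-ALL, 45 pairs of members were compared, and 0 passed the threshold after Benjamini-Hochberg adjustment by Pearson or Spearman correlation (permutation test). Without adjustment 5 pairs by Pearson and 3 by Spearman had a permutation p under 0.05. By Pearson correlation the strongest pair was Mdm2 with Mdm4, with r = 0.71 (permutation p = 0.00502, adjusted p = 0.212) and rho = 0.60 (permutation p = 0.0271, adjusted p = 0.555). Without WT T-ALL 7 and 4 r was 0.50, and within set B it was 0.47 over 10 tumors. Set A, with 4 WT T-ALL, is too small for a value. Ccng1 with Trp53inp1, the strongest pair by Spearman correlation, had r = 0.63 (permutation p = 0.0147, adjusted p = 0.212) and rho = 0.61 (permutation p = 0.023, adjusted p = 0.555), with r = 0.44 without WT T-ALL 126 and 48 and 0.63 within set B. Cdkn2a with Ccng1 had r = -0.38 (permutation p = 0.179, adjusted p = 0.62) and rho = -0.04 (permutation p = 0.889, adjusted p = 0.934), and r turned to 0.39 without WT T-ALL 126 and 14, so the negative sign rested on these tumors.

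Cdkn2a and Trp53 themselves had r = -0.12 (permutation p = 0.685, adjusted p = 0.907) and rho = -0.22 (permutation p = 0.449, adjusted p = 0.83) across the WT T-ALL. Over all 17 tumors the genes whose order was most like that of Cdkn2a were C130046K22Rik, Pomgnt1, Map7 and Dnajc14, with Spearman rho of 0.81, 0.79, 0.79 and 0.75. For Trp53 they were Pa2g4, Mrps2, Smarcb1 and Sf3a2, with rho of 0.88, 0.88, 0.84 and 0.83. Zc3h7a, Gfi1, Peli1 and Wsb1 were most like Mdm2, at 0.84 to 0.79, and B4galt3, Tmcc1, Il3ra and Fam122a most like Cdkn1a, at 0.82 to 0.78. These are the top values of a search over all genes tested, in libraries that share cell makeup and library set, and no member was among them.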

How the data were processed

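Expression was measured by RNA sequencing of stranded poly(A) mRNA libraries of 23 samples. The authors mapped reads to mm10 (named as the build per the labels) with the OSA aligner in ArrayStudio and deposited 1 table of log2 values: by its values log2(RPKM + 1) with each library scaled to a 75th percentile of 10 RPKM, a step not given in the sources used here. The table holds no read counts, so the depth of each library is unknown and no counting interval can be given. Scaling makes every value relative to its own library.

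Samples were grouped by donor thymus and tissue as labelled. Genes that reached a scaled RPKM of 1 in 3 or more fitted samples were tested with limma 3.58.1 (R 4.3.3; lmFit, eBayes with trend and robust), with Benjamini-Hochberg adjustment over all genes tested and a threshold of 0.05. Comparisons with thymus fitted all 3 groups together, and the comparison of the tumor groups fitted the tumors alone. Single members were also compared by exact permutation of the samples (two-sided, on the mean difference), and correlations used 100000 permutations. The code was tested on simulated data.

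The members and lists were chosen with earlier results of these data known. Named genes are the members, the 4 largest rises and falls among called genes of each list in each comparison with thymus, all called between the tumor groups, Cdkn2b and Mtap, and the 4 genes of highest Spearman rho with Cdkn2a, Cdkn1a, Mdm2 and Trp53. All listed genes were matched by symbol except Cop1, matched by identifier. Gene positions and promoter windows are from RefSeq (GRCm38.p6, the same build as mm10). Alternatives were another offset, filter, normalization, variance model, choice of samples, marker means as covariates, the sample number as a block and leaving out each library; the library sets were added after seeing the data.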

Additional observations from a re-analysis of the deposited data

How the results depend on the processing

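The counts of members called kept within 1.5 times of their values under another offset, filter, normalization, variance model, choice of samples, T lineage markers as a covariate, library set as a term and within set B. With the mean of the erythroid markers as a covariate, 0 members were called in either comparison with thymus, 8 and 0 p53 target genes, 2 and 1 regulators, and 859 and 153 genes in all; Mdm4 then turned to 0.18 and 0.15, Sesn2 to -0.32 and -0.24, Phlda3 in Notch3 KO T-ALL to 2.01, and against WT T-ALL Mdm2 to 0.093 and Phlda3 to 0.015. Within library set A, 2 members, 10 targets, 6 regulators and 1709 genes were called for WT T-ALL, 10 targets and 2825 genes for Notch3 KO T-ALL, and 13 genes between the tumors, with fewer samples. The uncalled differences of Cdkn1a turned to -0.25 and -0.51 with T lineage markers as a covariate, to -0.16 within set B for WT T-ALL, and to -0.18 and -0.093 for Notch3 KO T-ALL with quantile normalization and with library set as a term. Ccng1 in WT T-ALL turned to 0.44 with T lineage markers and 0.30 within set A, and Phlda3 in Notch3 KO T-ALL to 0.023 within set A. The cause was not tested.

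Same-numbered samples deviated with correlations of -0.24 to 0.15, so the numbers are only shared and pair nothing. With the replicate block, 1 member (Cdkn2a), 8 regulators and 2926 genes were called in WT T-ALL, and 0 targets and 1 gene between the tumors; Ccng1 turned to 0.10, Cdkn1a in Notch3 KO T-ALL to -0.14 and Cdkn2a between the tumors to -0.14.

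Gadd45a, the 1 target called between the tumors, was lost (0 targets) with an offset of 0.1, a filter at 5, the erythroid covariate, the replicate block, library set as a term and within set A, where its difference was 1.42 beside 1.37 with all tumors. The count of all genes called between the tumors, 72, was 39 with that offset, 134 without a filter, 6 with the filter at 5, 17 with the erythroid covariate, 254 with thymus in the fit and 159 with library set as a term.

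Leaving out 1 library at a time gave 5 to 5 members, 17 to 22 targets, 14 to 21 regulators and 5431 to 6313 genes in WT T-ALL; 4 to 6 members, 10 to 19 targets, 8 to 14 regulators and 2859 to 4714 genes in Notch3 KO T-ALL; and 0 to 0 members, 0 to 1 targets, 0 to 0 regulators and 3 to 205 genes between the tumors, with 3 when Notch3 KO T-ALL 2 and 205 when tumor 1 was left out. Without Notch3 KO T-ALL 1, 10 targets were called in that group. Uncalled differences that changed sign ranged from -0.13 to 0.052 for Ccng1 in WT T-ALL, from -0.30 to 0.31 for Cdkn1a and from -0.40 to 0.20 for Phlda3 in Notch3 KO T-ALL, and between the tumors from -0.031 to 0.42 for Trp53, from -0.34 to 2.33 for Cdkn2a, from -0.54 to 0.068 for Cdkn1a and from -0.82 to 0.065 for Trp53inp1. No pair of members was called in the WT T-ALL under another offset or normalization. Precision is limited by 3 Notch3 KO T-ALL, and library depth is unknown.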
